A study of Mus musculus with 4 samples.

Results

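The genes described here are 9 identity genes of the neurons of cortical layers 2 to 4 and of callosal projection neurons. They are Cux1, Cux2, Pou3f1, Pou3f2, Pou3f3, Rorb, Mef2c, Lmo4 and Inhba, taken by name from a deposited table of 55414 genes, and all 9 were among the 17017 genes that passed the filter on low counts. RNA was measured in cerebral cortex of C57BL/6J mice on postnatal day 1. There were 2 libraries labelled Control (replicates 2 and 3, Mkk7flox/flox, with no Cre named) and 2 labelled cKO (replicates 2 and 3, Mkk7flox/flox Emx1-Cre), so every animal carried floxed alleles of Mkk7, the kinase gene also called Map2k7. Cre was named only in the cKO group, and an effect of Cre itself and one of the deletion cannot be told apart. The question of the comparison was what the JNK-activating kinase MKK7 does in the developing cortex.

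Neurons of the upper layers are born last in the cortical wall and migrate past the older deep-layer neurons. Many send their axons through the corpus callosum to the other hemisphere, and those of layer 4 receive the sensory input of the thalamus. At this age the youngest of them are still settling. CUX1 and CUX2 are homeodomain factors that shape dendrites and spines of upper-layer neurons, and POU3F2 and POU3F3 (BRN2 and BRN1) act together in the production and migration of these cells. RORB marks layer 4, MEF2C is an activity-regulated factor of neuronal differentiation, LMO4 is a LIM-only adaptor, and Inhba encodes a subunit of the secreted ligand activin A. Emx1-Cre recombines in progenitors of the dorsal telencephalon, which give rise to excitatory neurons and glia of the cortex. Interneurons, microglia, vessels and meninges come from elsewhere, and their RNA was in the same libraries.

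Library totals lay between 19421470 and 22511175 counts. Map2k7 read 38.4 and 30.4 in Control 2 and 3 and 47.9 and 48.2 in cKO 2 and 3, as counts per 1e+06 after scaling (CPM). With a log2 fold change of 0.48 (SE 0.18; edgeR adjusted p = 0.428) it was not lower in the cKO group. The sums run over the whole gene and the floxed exons are not named in the labels, so this gene checks nothing, and each direction below rests on the labels. Of the 4 libraries, cKO 3 had 985 counts of the Y-linked gene Ddx3y and 0 of Xist, and the other 3 had 0 of Ddx3y and 1004 or more of Xist. Nothing in the labels ties a library to its own animal or litter. Over all tested genes, 0.047% passed the threshold (8 of 17017, edgeR adjusted p below 0.05), 0.00588% as higher and 0.0411% as lower in the cKO group.

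None of the 9 genes passed that threshold. The edgeR adjusted p-values ran from 0.498 to 0.911. At an unadjusted edgeR p below 0.05 there were also 0 of 9, where 10.9% of all tested genes were found (5.28% higher and 5.66% lower in the cKO group). DESeq2, which called 1.09% of all genes, and limma-voom called 0 of the 9 as well. The fold changes of cKO over Control lay between 0.833 and 1.33, with 5 genes above and 4 below 1. The 95% intervals all held 0 on the log2 scale and reached from -0.80 to 0.86 at their widest, so all 9 stayed inside a 2-fold change in either direction. For 4 of the 9 the interval also stayed inside 1.5-fold. Within those limits a difference was not detectable with 2 libraries a group, which does not show that the levels were alike. In RNA of whole tissue, fewer cells of a type and less RNA per cell cannot be told apart.

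On the count scale the 3 highest fold changes of the 9 were those of Rorb, Pou3f3 and Pou3f2, none of which passed the threshold. The 250 bases upstream of their start sites are printed here because these genes had the highest fold changes in counts, a choice made after their values were seen. On the authors' TPM scale the groups of Pou3f2 and Pou3f3 overlapped. The sequences are RefSeq's for GRCm38.p6, a build other than that of the deposited table, and each is written 5′ to 3′ along the gene. Rorb has 2 entries, the second of which lies inside the gene. None of the 4 windows overlaps an annotated exon of its own gene in GENCODE M21. Capitals mark a match to TGANTCA, the element of the AP-1 factors, whose member JUN is the classic substrate of JNK.
Pou3f2, chr4:22488367-22488616, - strand: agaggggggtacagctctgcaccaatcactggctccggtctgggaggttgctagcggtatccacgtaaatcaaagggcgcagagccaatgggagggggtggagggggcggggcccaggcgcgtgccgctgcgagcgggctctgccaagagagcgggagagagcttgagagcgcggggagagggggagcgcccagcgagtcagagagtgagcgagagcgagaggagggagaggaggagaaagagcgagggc
Pou3f3, chr1:42695518-42695767, + strand: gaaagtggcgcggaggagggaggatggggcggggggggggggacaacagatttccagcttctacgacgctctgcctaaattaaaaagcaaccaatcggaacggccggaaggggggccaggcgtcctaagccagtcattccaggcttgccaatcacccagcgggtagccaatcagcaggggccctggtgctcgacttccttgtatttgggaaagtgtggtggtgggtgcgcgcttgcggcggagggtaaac
Rorb, chr19:19111197-19111446, - strand: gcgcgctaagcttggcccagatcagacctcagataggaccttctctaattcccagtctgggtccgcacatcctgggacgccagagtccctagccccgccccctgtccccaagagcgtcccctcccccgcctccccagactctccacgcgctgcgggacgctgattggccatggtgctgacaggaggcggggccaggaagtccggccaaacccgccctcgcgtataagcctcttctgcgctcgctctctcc
Rorb, chr19:19001118-19001367, - strand: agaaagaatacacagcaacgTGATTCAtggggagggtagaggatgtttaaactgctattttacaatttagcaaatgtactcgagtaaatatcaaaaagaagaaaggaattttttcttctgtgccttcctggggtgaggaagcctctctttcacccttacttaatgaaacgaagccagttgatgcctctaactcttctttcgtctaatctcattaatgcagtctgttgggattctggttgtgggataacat
The Pou3f2 and Pou3f3 windows and the first Rorb window were rich in G and C (66.8%, 60.8% and 66%, against a median of 52.4% over 32851 promoters). They held 18, 15 and 18 CpG pairs, where the median promoter held 6. The inner Rorb window differed, with 39.2% G and C and 4 CpG pairs. It held the only AP-1 match of the 4, searched on both strands, in a window length at which 6.75% of all promoters held one. ATGCAAAT, the octamer bound by POU factors, was found in 1.6% of all promoters, and TGACGTCA, the CRE element, in 1.55%; neither was in these 4 windows. Of the 9 genes, 8 had an entry, with 14 windows in all, and 2 of the 14 held TGANTCA (1 of Rorb and 1 of Mef2c). The octamer and the CRE element were in 0 of the 14. TATAAA, the TATA box, was searched as well and was in 12.4% of all promoters. It was in 4 of the 14 windows (of Cux2, Inhba and Mef2c) and in none of those printed. A match of letters is a description and not a bound site. Pou3f1 had no entry.

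Levels between genes were compared on the authors' TPM scale, which is per transcript length. The order was the same in all 4 libraries: Mef2c, Lmo4, Cux1, Pou3f1, Pou3f3, Inhba, Pou3f2, Cux2, Rorb. Mef2c stood at 413 ± 61.8 TPM (SD, n = 4) and Rorb at 4.10 ± 0.64 TPM, so that Mef2c was between 81.9 and 110 times Rorb within a library. Mef2c and Lmo4 together made up 77.8% to 80.3% of the summed TPM of the 9 genes. Mef2c lay above at least 97.8% of the genes with counts in each library, whereas Rorb lay near the middle, above 44.3% to 49.6% of them. In that order the ranges over the 4 libraries overlapped for 3 neighbouring pairs: Cux1 with Pou3f1, Pou3f3 with Inhba, and Pou3f2 with Cux2. Within each library these pairs too kept the order above. The ranges of the other neighbours did not overlap.

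**Figure D1:**
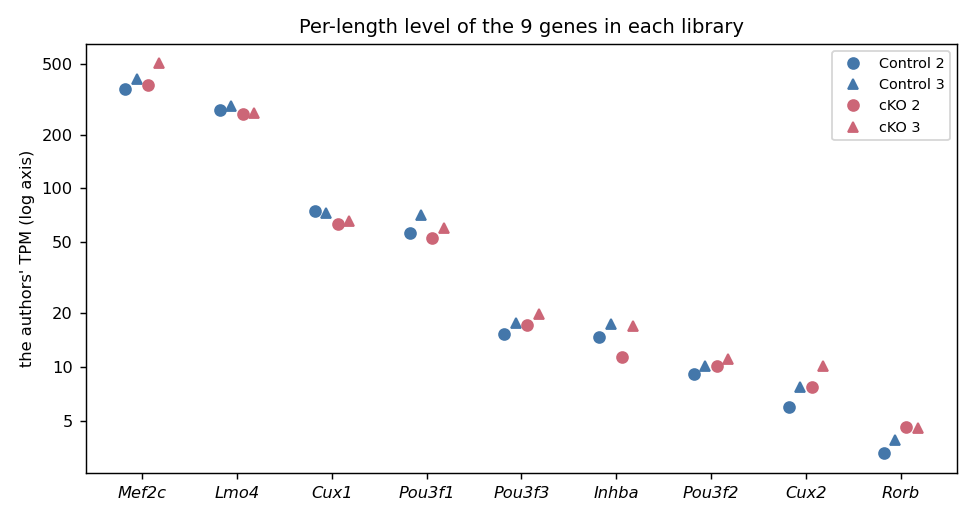
The authors' TPM (log axis) of each of the 9 genes in the 4 libraries, ordered by mean TPM, with Control in blue, cKO in red, circles for replicate 2 and triangles for replicate 3. Mef2c and Lmo4 sit far above the rest and Rorb is lowest, at 4.10 TPM on average.

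Among the transcription factors of layers 2 to 4, neither Cux1 nor Cux2 passed, and a difference between them was not tested. Cux1 (ENSMUSG00000029705.18; GRCm39 chromosome 5, 136276989 to 136596344) read 160 CPM in Control 2, 151 CPM in Control 3, 149 CPM in cKO 2 and 138 CPM in cKO 3. Both cKO libraries were below both Control libraries, by a small margin. The log2 fold change was -0.11 (SE 0.12, 95% interval -0.39 to 0.17, edgeR adjusted p = 0.766). It was -0.0576 without cKO 3, -0.17 without cKO 2 and -0.194 on the log2(TPM + 1) scale. Cux2 (ENSMUSG00000042589.19; chromosome 5, 121994429 to 122188165) stood at 23.5 and 31.5 CPM in the Control libraries and at 33.6 and 27.7 CPM in the cKO libraries. The groups overlapped, and Control 2 was the lowest of the 4. Its log2 fold change was 0.16 (SE 0.23, 95% interval -0.37 to 0.68, edgeR adjusted p = 0.842), and without Control 2 it turned to -0.0408. Per length, Cux1 was 6.49 to 12.6 times Cux2 within a library, with the lowest ratio in cKO 3. These ratios depend on the apparent lengths given below. The Cux1 value sums all transcripts of the gene, which also encodes a protein without the homeodomain.

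None of the 3 POU genes passed, and differences between them were not tested. Pou3f3 (ENSMUSG00000045515.5; chromosome 1, 42734085 to 42742336) stood at 71.5 and 81.5 CPM in the Control libraries and at 91.7 and 94.4 CPM in the cKO libraries, with no overlap. The log2 fold change was 0.28 (SE 0.14, 95% interval -0.04 to 0.60, edgeR adjusted p = 0.503). Pou3f2 (ENSMUSG00000095139.3; chromosome 4, 22482780 to 22488366) stood at 31.6 and 33.8 CPM and then at 39.3 and 39.5 CPM, again with both cKO libraries above both Control libraries. Its log2 fold change was 0.27 (SE 0.17, 95% interval -0.13 to 0.67, edgeR adjusted p = 0.607). Of the 9 genes, this pair had the most similar course over the 4 libraries: the root mean square difference of their centred log2 CPM was 0.0348. Pou3f1 (SCIP or OCT6, ENSMUSG00000090125.4, chromosome 4, 124550600 to 124554448) is the third gene of the family among the 9, and striatal neurons also express it. It stood at 116 and 153 CPM in the Control libraries, on either side of the 126 and 124 CPM of the cKO libraries. The log2 fold change was -0.11 (SE 0.16, 95% interval -0.47 to 0.25, edgeR adjusted p = 0.839), and without Control 3 it turned to 0.103.

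Rorb (ENSMUSG00000036192.16; chromosome 19, 18907969 to 19088560), which encodes a nuclear receptor that sets layer 4 identity, had the largest fold change of the 9 on counts. It stood at 22.3 and 24.5 CPM in the Control libraries and at 32.6 and 29.4 CPM in the cKO libraries. Both cKO libraries were higher. The fold of 1.33 (log2 fold change 0.41, SE 0.19, 95% interval -0.05 to 0.86) did not pass (edgeR adjusted p = 0.498), and the gene ranked 2483 by p among all tested genes. Mef2c (ENSMUSG00000005583.17; chromosome 13, 83652153 to 83815199) stood at 737 and 845 CPM in the Control libraries and at 850 and 938 CPM in the cKO libraries. Control 3 and cKO 2 almost touched. The log2 fold change was 0.18 (SE 0.10, 95% interval -0.07 to 0.42, edgeR adjusted p = 0.582), with the narrowest interval of the 9 genes. Without Control 3 it was 0.274 and without Control 2 0.0794.

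Lmo4 and Inhba, the adaptor and the ligand gene, had negative values. Lmo4 (ENSMUSG00000028266.18; chromosome 3, 143894291 to 143910981) stood at 237 and 254 CPM in the Control libraries and at 250 and 225 CPM in the cKO libraries, with overlap. Its log2 fold change was -0.05 (SE 0.12, 95% interval -0.32 to 0.22, edgeR adjusted p = 0.911), and without cKO 3 it turned to 0.0223. Inhba (ENSMUSG00000041324.15; chromosome 13, 16186436 to 16206206) stood at 18.6 and 23.4 CPM and then at 16.7 and 18.3 CPM. The groups did not overlap, but Control 2 and cKO 3 were close. Its log2 fold change was -0.26 (SE 0.23, 95% interval -0.80 to 0.27, edgeR adjusted p = 0.711), and it moved to -0.0915 without Control 3 and to -0.423 without Control 2. A pseudogene on the other strand, B230303A05Rik, overlaps Inhba and had 12.6% as many counts as Inhba. The kit does not mark the strand, so reads of the shared stretch cannot be told apart.

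In 6 of the 9 genes the CPM of the groups did not overlap, 4 with cKO higher and 2 with cKO lower. The background is large: the groups did not overlap for 44.1% of all tested genes (22% higher in cKO and 22.2% lower), so this count says little about the 9 genes.

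**Figure D2:**
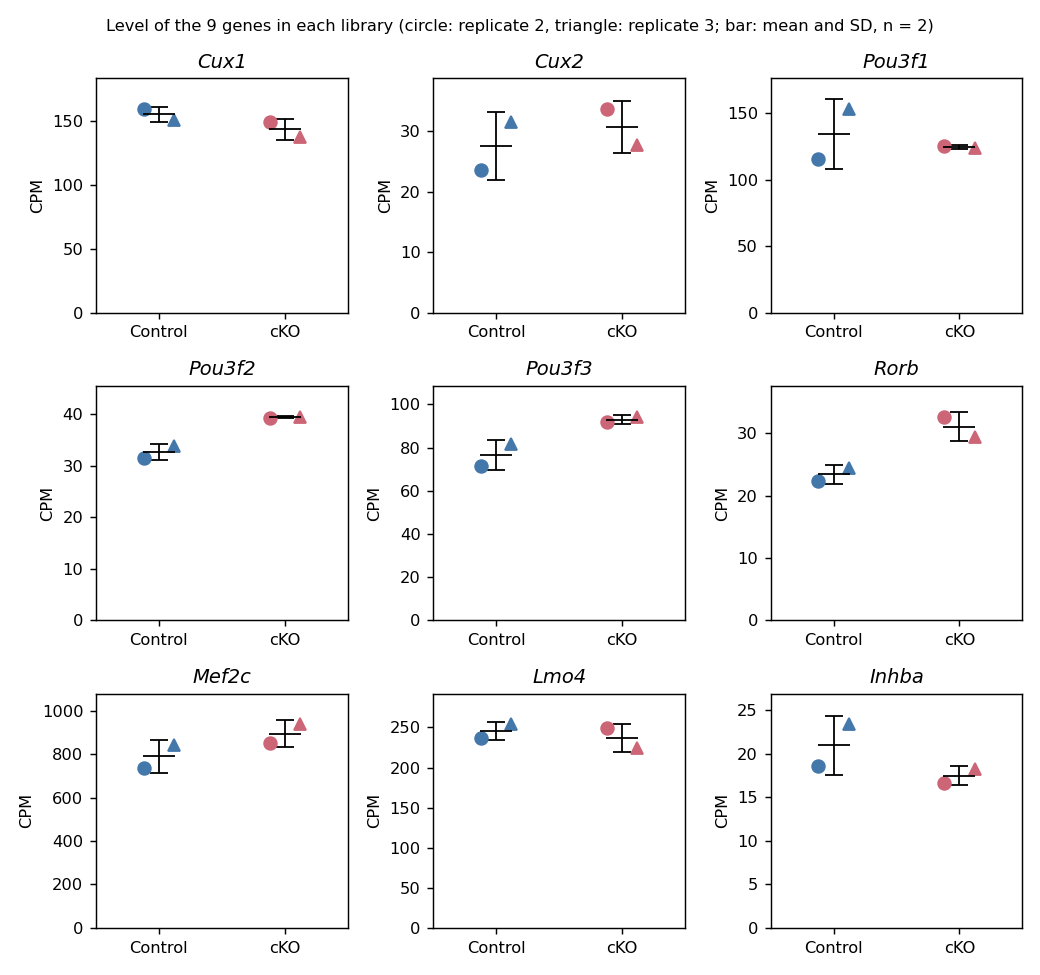
CPM of each of the 9 genes in each library, on axes that start at 0; circles are replicate 2, triangles replicate 3, and the black bars give the mean and SD of the 2 libraries of a group. Both cKO libraries sit above both Control libraries for Pou3f2, Pou3f3, Rorb and Mef2c, and below for Cux1 and Inhba.

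**Figure D3:**
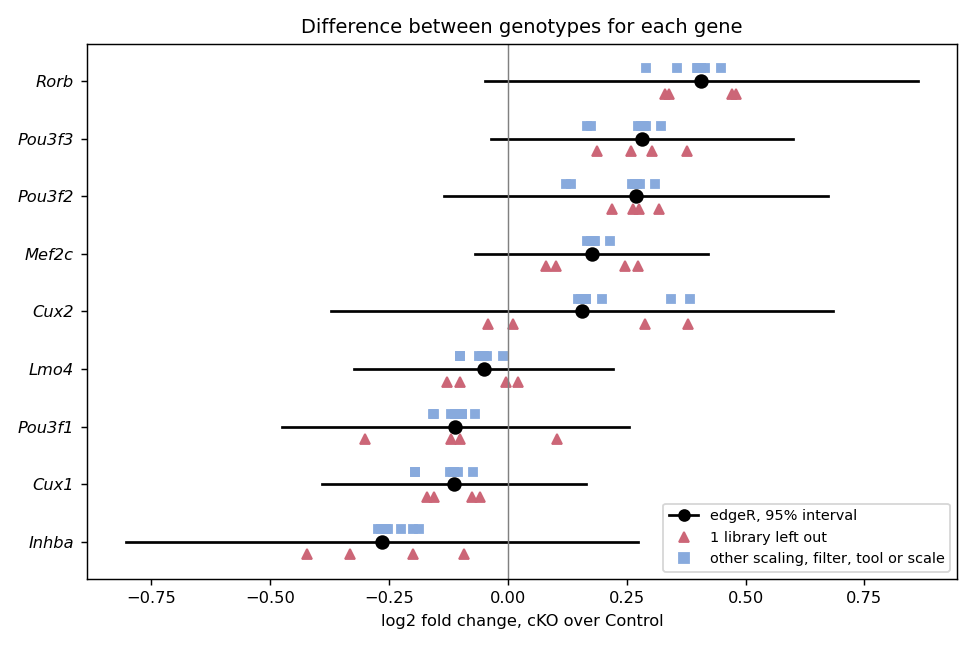
Log2 fold change of cKO over Control for each gene, with its 95% interval (black), the values with 1 library left out (red triangles) and the values under the other settings (blue squares). Every interval crosses 0, and the values with 1 library left out cross 0 for Cux2, Lmo4 and Pou3f1.

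For Cux2 the count scale and the per-length scale gave different pictures. In TPM it stood at 5.96 and 7.71 in the Control libraries and at 7.77 and 10.1 in the cKO libraries, so cKO 3, which was below Control 3 in CPM, was the highest in TPM. The mean TPM ratio of cKO over Control was 1.31 and the groups no longer overlapped. The value on the log2(TPM + 1) scale, 0.343 (limma adjusted p = 0.742), was over 1.5 times that on counts and did not pass either. Lmo4 likewise had TPM groups that did not overlap, at 276 and 291 in the Control libraries and 263 and 266 in the cKO libraries (log2(TPM + 1) difference -0.1, limma adjusted p = 0.818). Other genes went the opposite way. Pou3f2, Pou3f3, Mef2c and Inhba, whose groups did not overlap in CPM, overlapped in TPM. For Pou3f2 the TPM was 9.15 and 10.1 in the Control libraries and 10.1 and 11.0 in the cKO libraries, with cKO 2 just under Control 3. For Pou3f3 it was 15.3 and 17.6, and then 17.3 and 19.9. The log2(TPM + 1) difference of Pou3f2 was 0.122 and that of Pou3f3 0.166, both less than their values on counts by over 1.5 times. Cux1 and Rorb kept groups that did not overlap on both scales. The CPM were scaled with TMM and the TPM were not, so the scales also differ by library and not only by gene. Lmo4, with an apparent length (explained below) of 1226 to 1254 bases, read 250 CPM and 263 TPM in cKO 2. In cKO 3 it read 225 CPM and 266 TPM. The part of this library difference in which groups overlap was not tested.

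The ratio of counts to TPM reflects the length by which the authors' estimate scaled a gene in a library. It was put in bases with 577 genes of a single transcript of at least 2000 bases. It is not a measured transcript length. Pou3f1, with 1 listed transcript of 3849 bases, read 2929 to 3086 bases. Pou3f2, with 1 of 5587 bases, read 4739 to 5311 bases. A shift in this apparent length is thus not by itself a change of transcripts. For Cux2 this apparent length was 5623, 5779 and 5636 bases in Control 2, Control 3 and cKO 2, and 4055 bases in cKO 3. It was thus shorter in 1 library and alike in the other 3. The highest was 1.42 times the lowest, whereas the median over 11018 genes was 1.08, and 93.1% of these genes varied less than Cux2. The table lists 11 transcripts of Cux2, and their protein-coding forms in GENCODE M21 run from 420 to 8784 bases. Cux2 had 462 to 639 counts a library, and the part of read number in its apparent length was not tested. Inhba came next, with 1792, 1900 and 1898 bases and then 1588 in cKO 3, and 77.9% of the 11018 genes varied less than Inhba. Its 2 transcripts are 1529 and 6390 bases long, and the apparent length was 28.1% of the gene length of 6390 on average. The lowest values of Cux2, Inhba and Mef2c were in cKO 3, the male library. The highest values of Cux1, Pou3f2, Pou3f3 and Lmo4 were in cKO 3 as well. The part of sex or of that library was not tested.

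In the remaining 7 genes the highest apparent length was at most 1.12 times the lowest. Cux1 lay at 2944 to 3116 bases, 23.7% of its listed gene length of 12862. The Cux1 gene encodes both the homeodomain protein and CASP, a Golgi protein that lacks the homeodomain, and counts per gene do not separate them. Rorb lay at 8865 to 9673 bases, near its listed 9293, and Mef2c, with 31 listed transcripts, at 2772 to 2924 bases.

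**Figure D4:**
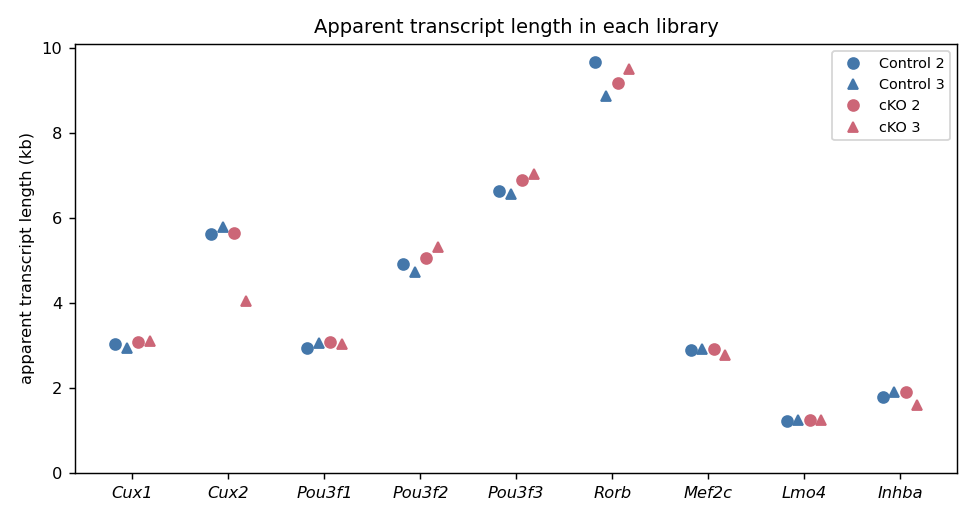
Apparent transcript length in kilobases of each gene in each library, from counts divided by TPM, with Control in blue, cKO in red, circles for replicate 2 and triangles for replicate 3. The Cux2 value of cKO 3 lies below the other 3, at 4055 bases against 5623 to 5779.

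Other upper-layer and callosal genes were read beside the 9. None of the 23 passed the threshold (edgeR; 5 had an unadjusted p below 0.05, all positive). Of them 18 had a positive and 5 a negative log2 fold change, with a median of 0.17; over all tested genes the median was 0.00 and 49.8% were positive. The 9 genes themselves had a median of 0.16. The smallest p-values belonged to the receptor phosphatase gene Ptprk, at 73.9 and 89.0 CPM in Control and 118 and 109 CPM in cKO (edgeR log2 fold change 0.48, SE 0.14, adjusted p = 0.363). Kitl, which encodes the ligand of the KIT receptor, had a value of 0.79 (SE 0.24), and the ephrin receptor gene Epha3 one of 0.70 (SE 0.23).

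Deep-layer and subplate genes had a median of 0.16, close to that of the 9 genes, with 14 of 21 positive and none past the threshold (edgeR; 4 positive and 4 negative at an unadjusted p below 0.05). The 3 with the smallest p were all positive: Id2, an inhibitor of bHLH factors, at 0.72 (SE 0.12), and the nuclear factor genes Nfia and Nfib at 0.87 (SE 0.16) and 0.50 (SE 0.10). These 3 are also expressed by progenitors and glia, and the part of those cells in the values was not tested. The 4 negative ones at that p, named after their values were seen, were Syt6 (-0.68, SE 0.20), Pcp4 (-0.53, SE 0.17), Foxp2 (-0.73, SE 0.25) and Bcl11b (-0.32, SE 0.11). The remaining positive one was Nr4a2 (0.30, SE 0.12). Sox5, Crym, Tbr1 and Fezf2 were also positive (0.31, 0.31, 0.20 and 0.16) and Tle4 was negative (-0.07), so genes of deep-layer neurons went both ways. Striatal neurons also express Foxp2, Pcp4 and Bcl11b, and the part of striatal cells in those values was not tested. The pan-excitatory list was positive in 10 of 10 genes with a median of 0.39, and 5 had an unadjusted edgeR p below 0.05. It was led by Neurod6, a bHLH factor of excitatory neurons, which stood at 480 and 587 CPM in Control and 730 and 720 CPM in cKO (edgeR log2 fold change 0.44, SE 0.12, adjusted p = 0.327), followed by Neurod2 (0.55, SE 0.16) and Bhlhe22 (0.61, SE 0.19). Emx1 (0.75, SE 0.25), named after its value was seen, was also among the 5 pan-excitatory genes at that p. It is the gene that the Cre of the cKO group is named for, and the part of that allele in its value was not tested. Intermediate progenitor genes, some of which share the subventricular zone with Cux2 and Pou3f2, had a median of 0.34 with 8 of 10 positive. Sstr2, a somatostatin receptor gene, had the smallest p of that list, at 62.2 and 58.8 CPM in Control and 109 and 118 CPM in cKO (edgeR log2 fold change 0.91, SE 0.13, adjusted p = 0.18), then Insm1 (0.60, SE 0.18) and Neurog2 (0.75, SE 0.27). Whether the lists differ from one another was not tested.

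**Figure D5:**
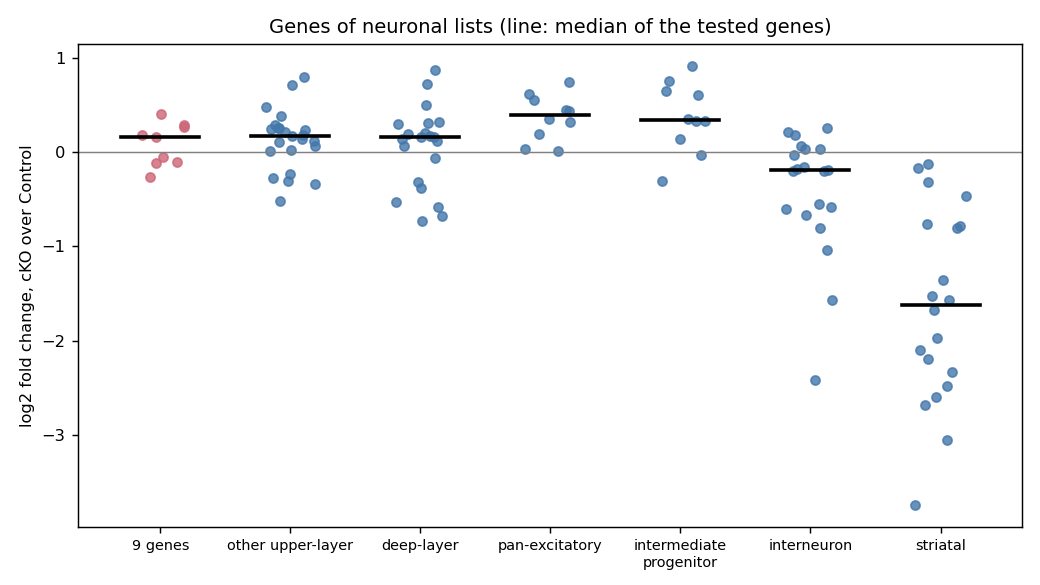
Log2 fold change of cKO over Control of every tested gene of 7 lists, with the 9 genes in red and the median of each list as a black line. The median is 0.16 for the 9 genes, 0.17 for other upper-layer genes, 0.16 for deep-layer genes and 0.39 for pan-excitatory genes, and striatal genes all lie below 0.

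Markers of other cells were read in the same libraries, since these are of whole tissue. Of 20 tested striatal projection neuron markers, 20 were negative with a median of -1.62, and 1 passed, the retinoid receptor gene Rxrg (edgeR adjusted p = 0.0414). The retinoic acid receptor gene Rarb had a value of -2.59 (SE 0.38). The summed TPM of the listed striatal markers was 547 and 406 in the Control libraries and 169 and 200 in the cKO libraries, and no marker was at 0 in every library. Interneuron markers were negative in 14 of 20 (median -0.19), with summed TPM of 2168 and 2008 in Control and 1824 and 1612 in cKO; Sst had the smallest p (-0.67, SE 0.13), then Dlx6 (-2.42, SE 0.58) and Gad2 (-0.60, SE 0.17). Mef2c, Lmo4 and Pou3f1 are also expressed in striatal neurons or interneurons, and the part of these cells in the values of the 9 genes was not tested.

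Among the other cell types, astrocyte markers had a median of -0.20 (9 of 11 negative; summed TPM 1951 and 2045 against 1364 and 1696), with Apoe at -0.53 (SE 0.10), Aqp4 at -0.79 (SE 0.24) and Fgfr3 at -0.77 (SE 0.24). Radial glia markers had a median of 0.13 (7 of 12 positive), with Tnc, Nes and Hes5 at 0.44, 0.40 and -0.42. Their summed TPM, however, was lower in both cKO libraries (2720 and 2705 in Control, 2516 and 2411 in cKO). Microglia, which express Mef2c, had a median of -0.17 (9 of 12 negative), with summed TPM of 303 and 331 in Control and 300.1 and 270 in cKO; the smallest p-values were those of Fcrls, Cx3cr1 and C1qb (0.51, -0.54 and -0.31). Endothelial markers, a further cell type with Mef2c, had a median of 0.34 (7 of 8 positive; summed TPM 223 and 200 against 228 and 245), led by Slc2a1, Flt1 and Cdh5 (0.70, 0.69 and 0.74). Meningeal fibroblast markers had a median of 0.36 (10 of 13 positive), led by Col5a2, Dcn and Col1a2 (0.92, 0.67 and 0.36). Their summed TPM overlapped between the groups (1118 and 1518 in Control, 1540 and 1307 in cKO). Oligodendrocyte precursor markers stood at -0.06 (4 of 8 negative), led by Olig1, Cnp and Olig2 (-0.30, -0.23 and -0.27). Red cell markers stood at 0.02, with a summed TPM of 16396 in cKO 2 and 7297 in cKO 3; Slc4a1 had the smallest p (-2.68), before Hbb-bt (0.17) and Hbb-bs (0.13). None of the genes of these 7 lists passed the threshold (edgeR).

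The paralogs and partners of the 9 genes gave a mixed picture. Of 17 tested paralogs 11 were positive and none passed (median 0.03; 1 positive and 3 negative at an unadjusted edgeR p below 0.05). Lmo2, a relative of Lmo4 that vessels express, had a value of -0.76 (SE 0.26). The relatives of Mef2c had values of 0.05 (SE 0.23) for Mef2a, 0.27 (SE 0.75) for Mef2b and 0.03 (SE 0.22) for Mef2d, named after their values were seen. Of 10 cofactors and partners, 5 were positive and 5 negative (median 0.07, none past the threshold, 4 positive at an unadjusted edgeR p below 0.05). Sox11, a factor gene of young neurons, had the smallest p (0.71, SE 0.12, edgeR adjusted p = 0.226), before Nfia and Nfib. For activin signalling, the pathway of the Inhba product, 7 of 14 genes were positive and 7 negative (median 0.08). None of these passed, and none had an unadjusted edgeR p below 0.05. The extracellular binding protein gene Fstl1 (0.31, SE 0.14), the ligand gene Gdf11 (-0.88, SE 0.39) and the receptor gene Acvr2a (0.47, SE 0.26) had the smallest p-values.

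The genes with the course most like that of Rorb over the 4 libraries, among 11040 protein-coding genes, were Srsf9, Tspan5 and Col6a1, with root mean square differences of centred log2 CPM of 0.00869, 0.0225 and 0.0229. The median over those genes was 0.283. For Pou3f3 they were Hnrnpf, Ctdsp2 and F3, at 0.0106, 0.0174 and 0.0179 against a median of 0.242. With 4 libraries in 2 groups such likeness is a description only.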

How the data were processed

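RNA from cerebral cortex was extracted with TRIzol and DNase treatment, and libraries were made with the SMART-Seq v4 low-input kit, per the labels' protocols. The authors deposited 1 table with estimated counts and TPM per gene and library, and a gene length. DRAGEN and build GRCm39 are named in the submitters' processing notes; the version, annotation release, settings and filters were not given in the sources used here. In each library 12.0% to 13.5% of the rows held a count that was not whole, so reads of several genes can have been split between them. The authors' TPM columns each sum to 1e+06.

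The deposited estimated counts were rounded. Genes were filtered with edgeR's default (version 4.0.16, R 4.3.3), which left 17017 of 55414, scaled with TMM and compared by genotype with edgeR's quasi-likelihood test, adjusted by Benjamini-Hochberg over all tested genes with a threshold of 0.05. SEs come from the log2 fold change and F. Libraries of a group were not duplicates (chi-square per degree of freedom 12.8 in Control and 27.7 in cKO). The cKO libraries were not from the same animal: cKO 2 had 1218 counts of Xist and 0 of Ddx3y, and cKO 3 had 0 and 985. Their spread thus includes that of sex. Both Control libraries had Xist and 0 counts of Ddx3y, so sex was also not balanced between the groups. The part of sex in the differences of cKO over Control was not tested. If the Control libraries are not separate animals, the spread between them is only technical and p-values rest in part on it. On simulated counts for this comparison with 17017 genes, the test recovered 57 of 100 at a 2-fold and 92 of 100 at a 4-fold change, with 17 false calls among 16817.

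The 9 genes and all gene lists were chosen with earlier results of these data known. Named besides the 9 are up to 3 genes with the smallest p of each list and the 3 genes most like each of the 2 with the smallest p (mean of at least 5 CPM); some genes that this rule names are not reported here. The settings tried beside it were DESeq2 (version 1.42.0), limma-voom (limma 3.58.1), robust shrinkage, other scaling (upper-quartile, RLE), other filters (none, or a mean of 1 CPM), a replicate block, limma on log2(TPM + 1) and log2(TPM + 0.1), and leaving out each library. A planned comparison of proteins was not run.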

Additional observations from a re-analysis of the deposited data

How the results depend on the processing

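None of the 9 genes was called under any of the 14 alternatives, the replicate block included (0 calls). In 123 of 126 cases the direction of a gene was kept. The 3 exceptions came from leaving out 1 library, where a lone library is assumed to vary like the rest: the log2 fold change of Cux2 ranged from -0.0408 to 0.378, that of Pou3f1 from -0.3 to 0.103 and that of Lmo4 from -0.127 to 0.0223. The lowest adjusted p of any gene and alternative was 0.403, for Rorb. Counts over all genes moved far more. The 1 higher and 7 lower genes became 21 and 37 with no filter and 80 and 105 with DESeq2. On log2(TPM + 1) there were 33 higher and 14 lower genes, and on log2(TPM + 0.1) 23 higher. A mean CPM of at least 1 gave 2 higher genes and limma-voom 3. With 1 library left out there were 0 higher and between 0 and 2 lower genes, the 2 without cKO 2; the cause of these shifts was not tested. With the replicate number as a block, 1 gene was higher and 6 lower. The labels tie the numbers to no litter or day, and same-numbered libraries did not deviate together (r = -0.0208 across 11922 genes, which are not independent). With 2 libraries a group, the width of the intervals sets what could be seen: for 5 of the 9 genes they reach past 1.5-fold.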
